A study of Mus musculus with 8 samples.

Results

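The 89 mouse genes named Zfp800 to Zfp999 were examined in RNA-seq libraries of CD8 T cells, 4 from cells given PBS (control) and 4 from cells given formate. The members are all rows of the deposited count table, 89 of 35072, whose symbol is Zfp followed by a number of 3 digits that begins with 8 or 9. All 8 libraries came from wildtype cells of spleen and lymph nodes, which had been activated for 18 h through CD3 and CD28 with interleukin-12. They were then kept for 24 h with PBS or with 2 mM formate, a one-carbon metabolite. No label states that the libraries of a group are separate animals or cultures. The p-values then measure the spread between these libraries only, which may be technical. The range of names was chosen by symbol, but with the formate changes of these genes in view. Counts of changed members, their median changes, summed levels and p-values therefore describe the table and support no statement about the range.

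Proteins with zinc fingers of the C2H2 type bind DNA through tandem fingers, each held together by a pair of cysteines and a pair of histidines around a zinc ion. Many of them carry a KRAB domain at the amino end, which recruits the co-repressor TRIM28 and through it the histone methyltransferase SETDB1. KRAB zinc finger proteins are best known for silencing retrotransposons, and their genes lie in clusters of close copies.

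The symbols held what the family name says. Of the 87 members with a coding sequence in GENCODE M21 (GRCm38), 74 encoded the KRAB sequence pattern within the first 150 residues, against 115 of 283 other genes named Zfp and a number (40.6%) and 0.693% of the 20639 coding genes with no finger. The pattern is a short series of residues sought in a coding sequence chosen for each gene, so a domain that it misses counts as absent. A member encoded a median of 11 fingers, with a range of 0 to 22. The transcripts were poor in G and C: the 71 members with enough counts to be tested had a median transcript GC content of 41.55%, against 47.19% in the 247 tested other Zfp genes and 50.62% over all tested genes. At the third codon position the contrast was wider, with medians of 33.28%, 52.37% and 60.47%.

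The coding sequence of 1 finger with its linker shows the AT-rich codons of most members. The finger shown is the first in each protein to match a fixed pattern of finger and linker. The shared plan and length were therefore set by the choice. It need not be the first finger of the protein, since 5 of the 15 fingers of Zfp871 and 2 of the 21 of Zfp865 matched. In the lines below, capitals mark the codons of the zinc-binding cysteines and histidines, each run covers 84 bases read 5′ to 3′ from the GENCODE M21 transcript, and the genes are the member with the smallest p in the fit described below (Zfp871), a further pair called in it (Zfp932 and Zfp950), the member with the most GC-rich transcripts (Zfp865), and close copies on chromosomes 2 and 4.
Zfp871: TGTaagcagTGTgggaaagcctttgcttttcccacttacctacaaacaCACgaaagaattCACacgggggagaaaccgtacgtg
Zfp932: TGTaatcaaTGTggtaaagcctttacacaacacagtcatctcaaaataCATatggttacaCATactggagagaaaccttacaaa
Zfp950: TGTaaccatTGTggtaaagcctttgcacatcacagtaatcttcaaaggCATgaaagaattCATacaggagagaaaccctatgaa
Zfp865: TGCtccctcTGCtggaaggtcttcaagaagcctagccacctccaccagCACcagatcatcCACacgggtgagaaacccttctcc
Zfp966: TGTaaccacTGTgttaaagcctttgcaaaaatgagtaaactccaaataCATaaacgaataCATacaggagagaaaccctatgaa
Zfp968: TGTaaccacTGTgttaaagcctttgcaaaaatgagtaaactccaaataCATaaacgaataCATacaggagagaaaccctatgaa
Zfp987: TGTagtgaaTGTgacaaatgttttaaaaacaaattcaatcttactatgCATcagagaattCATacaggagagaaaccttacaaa
Zfp991: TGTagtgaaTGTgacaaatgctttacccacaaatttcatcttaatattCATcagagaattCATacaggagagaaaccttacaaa
These fingers held 47.6% G and C in Zfp871, 34.5% in Zfp932, 38.1% in Zfp950 and 57.1% in Zfp865. Over the 79 members with such a finger the median was 38.1%, from 29.76% to 64.29%. The fingers of Zfp966 and Zfp968 did not differ at any of the 84 bases, and those of Zfp987 and Zfp991 differed at 8. Zfp950 and Zfp865, by contrast, differed at 39.

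Such copies bear on the values, because the deposited counts are estimates that divide reads among matching transcripts. A member shared a median of 12.72% of its 31-base words with another gene, with a range of 0 to 100%. Of the 71 tested members, 36 shared under 10% and 12 shared 50% or more. Zfp967 and Zfp969 shared 100% of their words and were listed at essentially 0 counts, so reads from them cannot be told from those of their copies. In 60 of the 71 tested members no library had a whole-number count (to within 1e-06). Values of the 12 members with the most sharing are uncertain to that extent.

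The 8 libraries held 29361986 to 41393093 estimated counts. The CD8 label stood: Cd8a averaged 549.8 CPM (counts per 1000000 counts, scaled by TMM normalisation here and below), Cd8b1 263.7 and Cd4 4.664. Summed markers of B cells ranged from 13.96 to 24.01 CPM in controls and from 15.98 to 27.45 with formate, and those of myeloid cells from 0.3636 to 1.755 and from 0.7955 to 2.177. Natural killer markers (0.7756 to 1.707 and 1.065 to 2.088 CPM, nearly all Klre1) and erythroid markers (0 to 0.1891 and 0.0806 to 0.6496 CPM, with Hba-a1 at 0 in every library) were higher with formate in 4 of 4 pairs of neighbouring libraries, and their part in the results was not tested. Libraries with title codes 10 to 14 (controls and formate 1 and 2) stood apart from those with codes 1 to 8 (controls and formate 3 and 4) along the main axis of variation in earlier results of these data. In bulk RNA, fewer cells of a type and less RNA per cell cannot be told apart.

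Most members were expressed at low levels. The 71 tested members had a median of 6.79 CPM, with 48 under 10 CPM and 10 over 20 CPM. Per kilobase of transcript their median level was 3.23 CPM, against 5.08 in the other Zfp genes and 12.52 over all tested genes. The highest levels per kilobase were those of Zfp809, which silences retroviruses in embryonic cells by binding their primer binding site (18.07 CPM per kb, 15.4 to 22.2 over libraries), Zfp961 (17.32, 15.9 to 18.7) and Zfp869 (15.09, 13.4 to 16.9). They were followed by Zfp932 (14.48, 11.5 to 19.7), Zfp830 (14.38, 11.1 to 16.1) and Zfp954 (13.78, 11.6 to 18.0), and each of these 6 overlapped its neighbour in this order. None of the 6 except Zfp932 was called between formate and control in any edgeR fit over all 8 libraries that is described here. The 18 members with too few counts held at most 68.13 counts over all 8 libraries (Zfp985), and 3 of them, Zfp967, Zfp969 and Zfp977, held under 0.5 counts in every library.

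The formate comparison asks how the metabolite changed these genes in activated cells. Members were higher with formate more often than lower: 63 of 71 had a positive log2 change, with a median of 0.25, when all tested genes had a median of -0.01 and the other Zfp genes 0.06. The change was positive in 48.2% of all tested genes and in 64.0% of the other Zfp genes. No member was called in either direction by edgeR's quasi-likelihood test without pairing (adjusted p under 0.05 over 13299 genes), in which 0.00752% of all tested genes were called higher and 0% lower. At an unadjusted p under 0.05, 13 members were higher and 0 lower, beside 3.05% and 1.72% of all tested genes. Without formate 1 the median over members was 0.17. DESeq2 without pairing also called 0 members, beside 0.0827% of all genes higher and 0.0752% lower.

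Codes in the sample titles form neighbours of 1 control and 1 formate library (1 and 2, 7 and 8, 10 and 11, 13 and 14), and no label says that neighbours belong together. With these pairs as a block, edgeR called 16 members higher and 0 lower, where 5.35% of all tested genes were called higher and 7.52% lower. With library size only in place of TMM, the split over all genes turned from 711 higher and 1000 lower to 1048 and 539, with 19 members higher and 0 lower. The TMM fit called 30 of the 247 other Zfp genes higher and 5 lower. The block changed the number of calls and hardly the size of the change, since the median over members was 0.26, with quartiles of 0.13 and 0.38. With the library set (codes 10 to 14 or 1 to 8) as a term in place of the pairs, the median was again 0.26 and 0 members were called, beside 0.00752% and 0% of all genes. The calls of single members therefore rest on the pairs, which were read from title codes and are stated nowhere as a design. Without codes 1 and 2 the block left 5 members called, beside 1.21% of all genes higher and 1.34% lower. Without 7 and 8 it left 8, beside 2.24% and 3.1%, without 10 and 11 it left 6, beside 4.18% and 6.12%, and without 13 and 14 it left 7, beside 1.7% and 2.11%. The share over all genes thus moved with the pair left out as well.

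**Figure D1:**
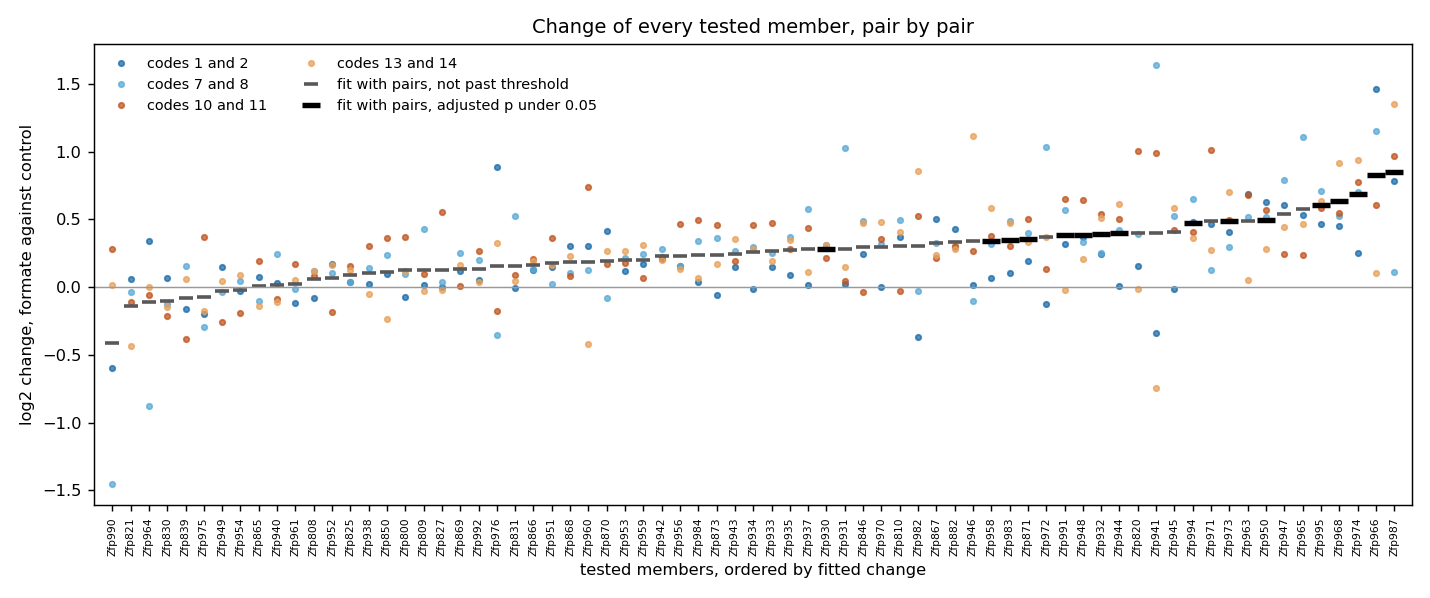
Log2 change with formate of the 71 tested members, ordered along the horizontal axis by the change fitted with pairs as a block. Points are the 4 pairs of neighbouring title codes and bars the fitted change, thick where the adjusted p is under 0.05. Of the 71 fitted changes, 63 lie above 0 (49.2% over all tested genes), and the 16 thick bars are all among them.

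By pair, 38 of the 71 tested members were higher with formate in 4 of 4 pairs, 19 in 3, 11 in 2, 3 in 1 and 0 in none. Among all tested genes 16% were higher in 4 of 4 pairs and 19.5% lower. The median change over members was largest in the pair of codes 10 and 11, at 0.30. It was 0.26 in the pair 7 and 8, 0.20 in 13 and 14, and 0.13 in 1 and 2, while that over all tested genes lay between -0.03 and 0.01. Of the 71 members, 7 had all 4 formate libraries above all 4 controls (Zfp866, Zfp932, Zfp947, Zfp948, Zfp950, Zfp974 and Zfp987), beside 2.44% of all tested genes, and 0 had them below, beside 1.86%. The summed CPM of all 89 members ranged from 599 to 630 in controls and from 665 to 755 with formate, without overlap. Their mean was 615 ± 13.6 (SD, n = 4) in controls and 704 ± 37.4 (SD, n = 4) with formate. The sum over the other Zfp genes was 5009 ± 250.3 and 5159 ± 175.4 (SD, n = 4). Its ranges overlapped, but it too was higher with formate in 4 of 4 pairs.

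Zfp871 (ENSMUSG00000024298, chr17:32765496-32788287, minus strand, 15 fingers and a KRAB pattern) had the smallest p in the fit with pairs. Its level was 20.5, 23.1, 30.9 and 21.3 CPM in controls 1 to 4, and 29.1, 29.1, 35.4 and 28.2 CPM in formate libraries 1 to 4. Each formate library was above its neighbour, but control 3 exceeded 3 of the 4 formate libraries, so the groups overlapped. The mean went from 24.0 ± 4.76 to 30.4 ± 3.35 CPM (SD, n = 4). The log2 change was 0.35 with a standard error of 0.07 and an adjusted p of 0.00465 with pairs, and 0.34 with an adjusted p of 0.998 without them (edgeR).

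Zfp932 (ENSMUSG00000066613, chr5:109996521-110010411, plus strand), a KRAB protein known to bind endogenous retroviruses, stood at 17.0, 14.4, 14.9 and 16.6 CPM in controls 1 to 4. With formate it stood at 24.8, 20.5, 17.6 and 19.8 CPM. The groups did not overlap, and the mean went from 15.7 ± 1.27 to 20.7 ± 3.01 CPM (SD, n = 4). The log2 change was 0.39 (adjusted p = 0.00503 with pairs, edgeR). Of its 31-base words, 48.25% occurred in another gene.

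Zfp950 (ENSMUSG00000074733, chr19:61053840-61140840, minus strand, 17 fingers) shared only 5.26% of its words. It stood at 7.25, 7.73, 5.997 and 5.84 CPM in controls 1 to 4 and at 10.8, 9.40, 9.28 and 8.38 CPM with formate. The groups did not overlap, with means of 6.71 ± 0.93 and 9.46 ± 0.99 CPM (SD, n = 4). The log2 change of 0.50 had a standard error of 0.10 and an adjusted p of 0.00578 with pairs (edgeR). The members most like it across the 8 libraries, by Pearson correlation of log2 CPM, were Zfp947 (0.91), Zfp994 (0.89) and Zfp973 (0.88), which share with it the treatment difference and the library sets.

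Zfp948 (chr17:21567008-21588699) also had separate groups. Its controls lay close together at 8.79, 9.02, 8.94 and 9.79 CPM, and its formate libraries lay at 13.7, 10.4, 11.6 and 12.3 CPM. Its log2 change was 0.39 (adjusted p = 0.0126 with pairs). Zfp930 (chr8:69209038-69230536) stood at 20.2, 19.1, 16.3 and 18.3 CPM in controls and 23.5, 23.6, 19.9 and 22.7 CPM with formate. Control 1 passed formate 3, so its groups overlapped, and its log2 change was 0.28 (adjusted p = 0.0110 with pairs).

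**Figure D2:**
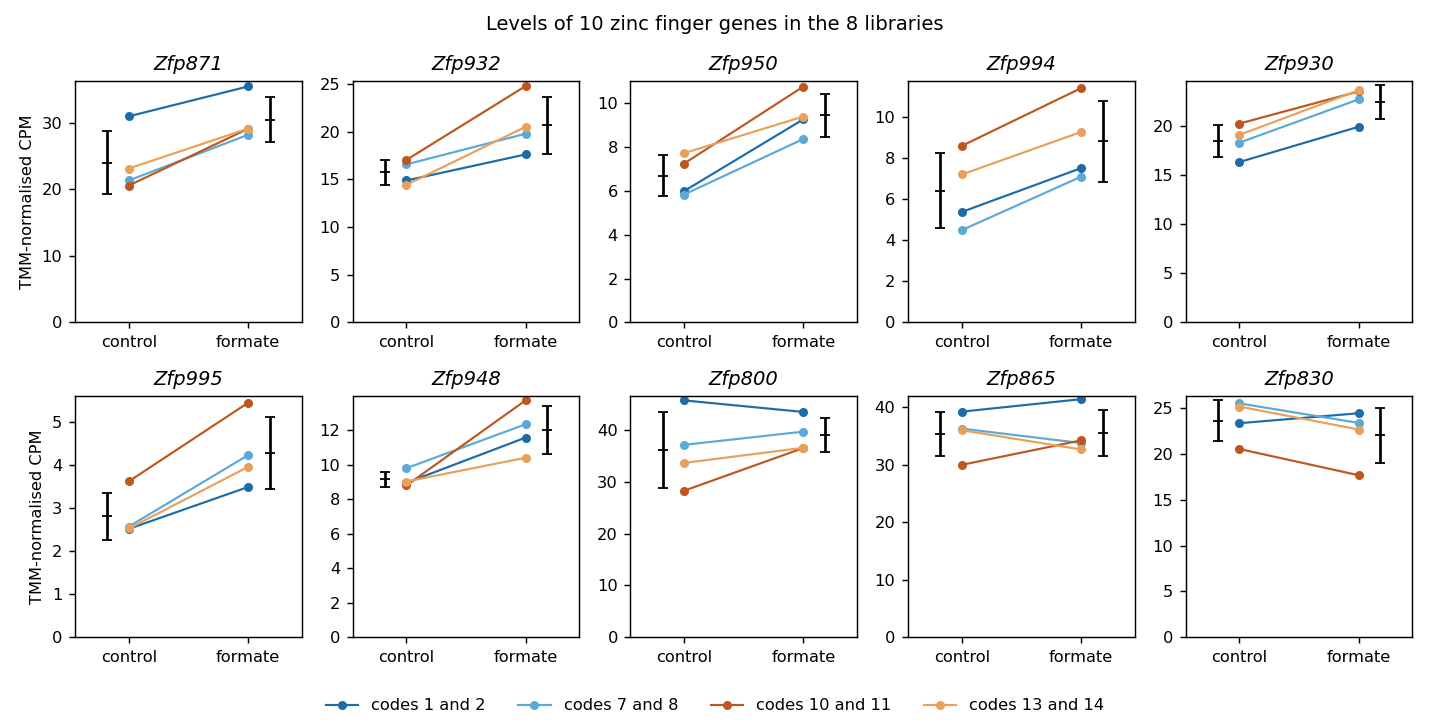
TMM-normalised CPM of 10 members in control and formate libraries, with lines joining neighbouring title codes and black bars giving the mean and SD of 4 libraries. Lines rise in every pair for the 7 members with the smallest p (Zfp871 to Zfp948), while Zfp800, Zfp865 and Zfp830 have lines in both directions.

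Zfp974 (chr7:27907392-27929460), with 21 fingers, was the member called without a KRAB pattern. It was low, at 1.74, 1.26, 1.67 and 1.22 CPM in controls and 3.02, 2.47, 2.00 and 2.01 CPM with formate. Its groups did not overlap, and its log2 change was 0.69 (adjusted p = 0.0335 with pairs). Zfp995 (chr17:21879570-21909926) stood at 3.61, 2.52, 2.51 and 2.57 CPM in controls, where control 1 was apart, and at 5.44, 3.95, 3.48 and 4.22 CPM with formate. Control 1 lay above formate 3, and the log2 change was 0.61 (adjusted p = 0.0113 with pairs).

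The largest increases among tested members were those of Zfp987, Zfp966, Zfp974 and Zfp968, at log2 changes of 0.85, 0.83, 0.69 and 0.64 with pairs. Zfp987 went from 1.11, 0.87, 1.11 and 1.22 CPM to 2.22, 2.31, 1.95 and 1.32 CPM in libraries 1 to 4, without overlap (adjusted p = 0.0292). Zfp966 went from 3.44, 3.18, 1.89 and 2.60 CPM to 5.27, 3.41, 5.30 and 5.84 CPM, where formate 2 lay below control 1 (adjusted p = 0.0201). Zfp968 went from 1.61 ± 0.34 to 2.53 ± 0.74 CPM (SD, n = 4; adjusted p = 0.0347 with pairs, edgeR). These are low counts, and Zfp987, Zfp966 and Zfp968 shared 93.15%, 93.94% and 97.33% of their words with other genes. The other called members were Zfp994, Zfp958, Zfp944, Zfp973, Zfp983 and Zfp991, with log2 changes of 0.34 to 0.49 and adjusted p from 0.00755 to 0.0275, and their groups overlapped. Of all 16, Zfp991 was higher in 3 of 4 pairs and the others in 4 of 4.

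The largest decreases belonged to Zfp990 (log2 change -0.41), Zfp821 (-0.14), Zfp964 (-0.11) and Zfp830 (-0.10), and none passed the test with pairs (adjusted p from 0.321 to 0.849). Zfp830, a protein with 1 finger known as a splicing-associated factor, averaged 23.7 ± 2.28 CPM in the 4 controls and 22.1 ± 3.01 CPM in the 4 formate libraries (SD). Zfp990 was at 0.61 ± 0.17 and 0.47 ± 0.27 CPM. At the edges of the number range, Zfp799, just outside, had a log2 change of -0.02, and Zfp800, just inside, one of 0.12; Zfp998 and Zfp1004 had too few counts to be tested.

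By sequence pattern, the 60 tested members with the KRAB pattern had a median log2 change of 0.28 with pairs, and 15 of them were called higher, beside 5.35% of all tested genes. The 11 without it had a median of 0.12, and 1 was called. The groups also differed in GC content, with medians of 40.63% and 51.12%. By sequence sharing, the median was 0.19 for the 36 members under 10%, 0.28 for the 23 from 10% to 50%, and 0.43 for the 12 at 50% or more, all 12 of which were positive. Calls higher with pairs numbered 5 of the 36, 6 of the 23 and 5 of the 12. These groups differed in GC content too, with medians of 44.52%, 39.32% and 39.69%. With the GC trend of each library removed by an offset, their median changes with pairs were 0.13, 0.11 and 0.29. Calls higher were then 2, 2 and 0, beside 4.23% of all tested genes. Without the offset, the Spearman correlation of change with sharing across the 71 members was 0.39. Across genes, which are not independent replicates, it was 0.18 with the number of fingers and -0.19 with transcript length.

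Members also lay together on the chromosomes. Runs of members less than 1 Mb apart (1000000 bases) lay on chromosome 4 (13 members), on chromosome 17 (11) and on chromosome 2 (11). The run at chr17:21567008-22867134 had all 11 members tested, all positive, a median log2 change of 0.40 and 5 calls higher with pairs (beside 5.35% of all tested genes), and the 4 other tested genes inside it had a median of 0.05. The run at chr2:174643534-178078476 had 9 tested members, all positive, a median of 0.49 and 3 calls, and the 28 other tested genes inside it had a median of 0.27. The run at chr4:145510759-147848366 had 7 tested members, a median of 0.26 and 2 calls, and the 9 other tested genes inside it had a median of 0.16. In a run of 6 members at chr8:69209038-69791178 the order was the other way, with a median of 0.17 and 1 call for the members and a median of 0.22 for the 5 other tested genes. A run at chr7:42579783-43618285 had 2 tested members and a median of 0.04, beside 0.05 for 9 other tested genes. Outside the members, tested genes of chromosomes 17, 2 and 4 had medians of -0.01, -0.02 and -0.01. Their median GC contents were 53.85%, 50.61% and 52.08%, against 38.5%, 38.84% and 40.07% for tested members of the runs of 11, 11 and 13. All tested members on these chromosomes had median changes of 0.35, 0.43 and 0.26. With the GC trend removed by the same offset they had 0.18, 0.29 and 0.09, and the other genes 0.01, -0.02 and -0.0038. The part of GC content in the difference between runs and their neighbours was not tested.

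Levels were also summed over the members of each run, leaving out the other genes inside it; whether the genes that share words with a member lie in its run was not tested. The chromosome 4 run summed to 47.6 to 51.4 CPM in controls and 51.8 to 67.8 CPM with formate, without overlap. The chromosome 17 run went from 56.04 ± 8.11 to 72.59 ± 12.99 CPM and the chromosome 2 run from 27.48 ± 4.66 to 36.58 ± 5.26 CPM (SD, n = 4), with overlapping ranges. Both were higher with formate in 4 of 4 pairs. The chromosome 8 run went from 77.49 ± 5.03 to 88.46 ± 5.19 CPM without overlap, and one of 4 at chr17:32765496-33005457 from 42.14 ± 2.84 to 49.79 ± 2.71 CPM, also without overlap. Such sums rest most on the members of highest level, such as Zfp984 in the chromosome 4 run. In the run of 4, Zfp871 itself went from 24.0 to 30.4 CPM, with overlapping groups. How often sums over other sets of genes do not overlap was not tested. The chromosome 7 run stood at 3.17 ± 0.84 and 3.16 ± 0.94 CPM.

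**Figure D3:**
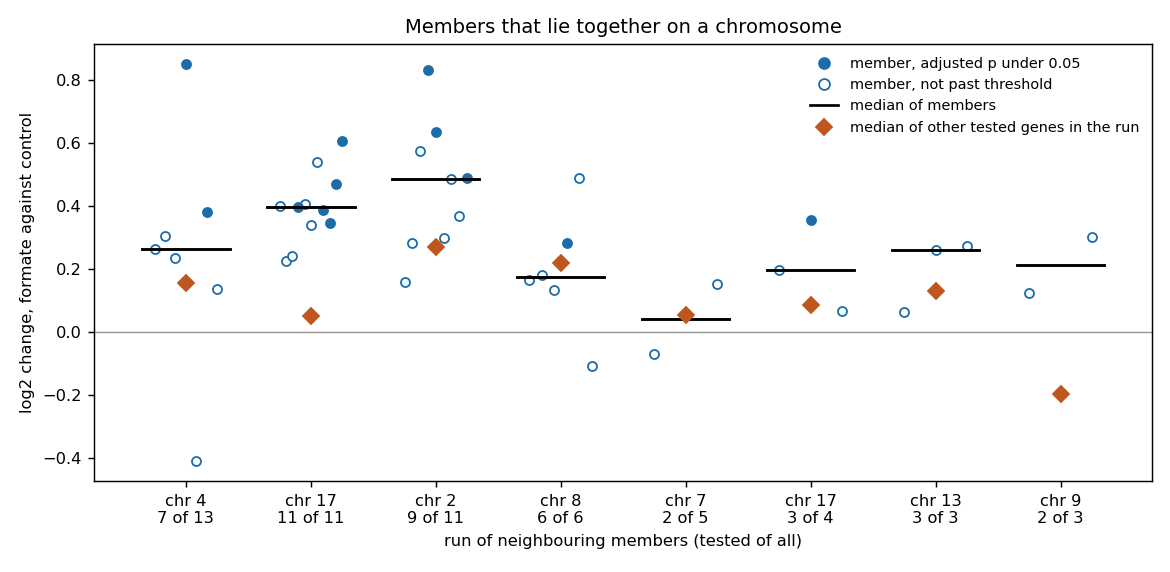
Log2 change with formate (pairs as a block) of tested members in 8 runs of neighbouring members, with points in order of gene number within a run, filled where the adjusted p is under 0.05. Black lines give the median of the members and diamonds the median of the other tested genes inside the run; the highest line is that of the chromosome 2 run, at 0.49, and the lowest that of the chromosome 7 run, at 0.04.

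The change followed transcript GC content. The 26 members under 40% GC had a median log2 change of 0.32 with pairs, the 24 from 40% to 45% one of 0.28, the 14 from 45% to 50% one of 0.19, the 5 from 50% to 55% one of 0.13 and the 2 above 55% one of -0.04. The other Zfp genes gave 0.30, 0.15, 0.06, 0.02 and -0.07 in these bands. All tested genes that were no members gave 0.19, 0.06, 0.00, -0.03 and -0.05. The trend was thus present over the whole table. In each of the 5 bands the median of the members lay above that of the other genes, though the last band held 2 members. The range was chosen with these changes in view, so this order describes the table only. Within the bands, from low GC to high, members had median GC contents of 37.85%, 41.66%, 46.63%, 52.33% and 59.44%. Genes that were no members had 38.73%, 43.08%, 47.63%, 52.55% and 57.38%, so the bands did not match GC content exactly. The Spearman correlation of change with GC content was -0.39 across the 71 members, -0.56 across 246 other Zfp genes and -0.23 across 13200 tested genes. It was -0.37, -0.30, -0.19 and -0.10 for members in codes 10 and 11, 13 and 14, 7 and 8, and 1 and 2. At the extremes, Zfp945 (36.07% GC) went from 1.68 ± 0.95 to 2.29 ± 1.40 CPM and Zfp984 (36.44%) from 20.4 ± 0.82 to 24.3 ± 4.31 CPM. At the GC-rich end, Zfp839 (57.94%) went from 6.53 ± 0.54 to 6.17 ± 0.60 CPM and Zfp865 (60.93%) from 35.4 ± 3.89 to 35.6 ± 3.98 CPM (SD, n = 4). None of these 4 was called.

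With the GC trend of each library removed by an offset, the median over members fell to 0.15 with pairs, when that over all tested genes was -0.0026. Of the 71 members, 56 then had a positive change, beside 49.5% of all tested genes and 59.5% of the other Zfp genes. In the 5 bands, from low GC to high, members had medians of 0.12, 0.16, 0.17, 0.15 and 0.02. The other Zfp genes had 0.13, 0.10, 0.05, 0.04 and -0.02, so under 40% GC the members did not lie above them. Calls higher fell from 16 to 4 (Zfp871, Zfp950, Zfp974 and Zfp995), beside 4.23% of all genes higher and 6.35% lower, and calls lower stayed at 0. The 4 made up 5.63% of the members, and 17 of the 247 other Zfp genes, or 6.88%, were called higher in the same fit. Zfp871 then had a log2 change of 0.26 (adjusted p = 0.0165), Zfp995 one of 0.54 (adjusted p = 0.0194), Zfp950 one of 0.36 (adjusted p = 0.0269) and Zfp974 one of 0.68 (adjusted p = 0.0390), while Zfp932 went to 0.21 (adjusted p = 0.0792). Members with the KRAB pattern had a median of 0.15 after the offset, and those without it 0.07. The mean GC content of all transcripts, weighted by counts, was 50.38% to 50.48% in controls and 50.22% to 50.28% with formate, without overlap. The mitochondrial share of counts moved too, from 0.46% ± 0.07 to 0.70% ± 0.15 (SD, n = 4), higher in 4 of 4 pairs. The part of either in the change of the members was not tested.

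**Figure D4:**
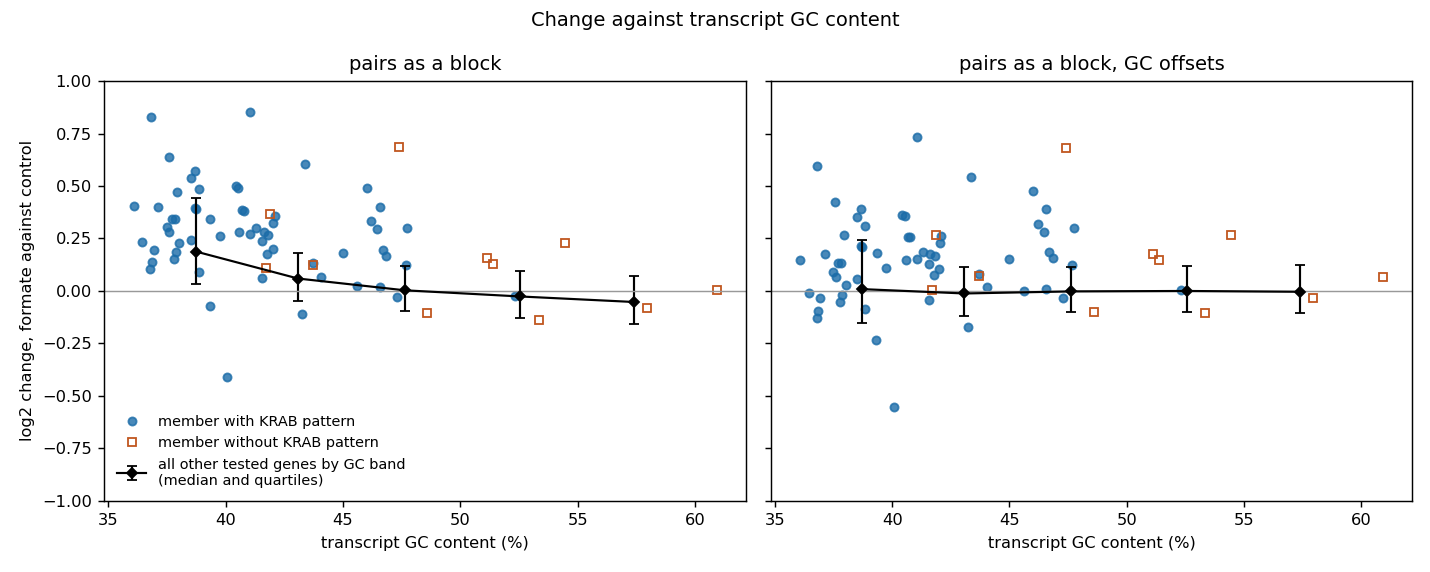
Log2 change with formate against transcript GC content of the 71 tested members, filled where the KRAB pattern is present, with pairs as a block (left) and with GC offsets added (right). Diamonds with bars give the median and quartiles of all other tested genes in 5 GC bands, which slope from 0.19 to -0.05 on the left and lie between -0.01 and 0.01 on the right.

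The members also differed between the library sets, a contrast balanced over formate and control and chosen after seeing the data. Mean CPM was higher in codes 10 to 14 than in codes 1 to 8 for 54 of 71 members. The median log2 difference between the sets was 0.25 over members, 0.05 over the other Zfp genes and 0.006 over all tested genes. In an edgeR fit with treatment and set, 20 members were called higher in codes 10 to 14 and 4 lower, where 18.9% of all tested genes were called higher and 20.9% lower. The largest difference was that of Zfp945, at 1.02 CPM in codes 1 to 8 and 2.95 CPM in codes 10 to 14 (log2 difference 1.51, adjusted p = 0.0016). Zfp931 stood at 1.63 and 4.31 CPM and Zfp810 at 3.77 and 8.01 CPM. Zfp827 went the other way, at 21.02 and 13.3 CPM, as did Zfp809, at 24.8 and 19.3 CPM. These differences exceeded the formate changes of the same members.

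Of 39 listed genes of the KRAB co-repressor pathway, 38 were tested; Zfp57, a KRAB protein of imprinted regions, was not. Without pairing 0 were called. With pairs 2 were called higher and 8 lower, beside 5.35% and 7.52% of all tested genes, and the median log2 change was -0.07. Trim28, the co-repressor that KRAB domains bind, stood at 405.9, 473.7, 579.6 and 573.4 CPM in controls 1 to 4 and at 336.2, 385.7, 508.5 and 475.0 CPM with formate. It was lower in 4 of 4 pairs while the groups overlapped, and its log2 change was -0.26 (standard error 0.04, adjusted p = 0.00379 with pairs, 0.998 without, edgeR). Setdb1, the methyltransferase, stood at 98.0 ± 16.5 and 93.8 ± 13.7 CPM (SD, n = 4), with a log2 change of -0.06 (adjusted p = 0.423 with pairs). Of 12 listed genes of the NuRD remodelling complex, 4 were called lower, namely Mbd3, Mta1, Mta2 and Chd4, at log2 changes of -0.22, -0.19, -0.18 and -0.19. The other 8 were not called, at -0.14 to 0.13 (adjusted p from 0.0525 to 0.923, edgeR), and 3 of them had positive values (Rbbp4, Gatad2b and Hdac1). Uhrf1, which brings DNA methyltransferase to newly copied DNA, Ehmt2, a histone methyltransferase, and Daxx, a histone chaperone, were called lower as well. Smarcad1, a remodelling ATPase, was called higher, at a log2 change of 0.16. With GC offsets 0 were called higher and 8 lower, beside 4.23% and 6.35% of all genes, with Trim28 at -0.22 (adjusted p = 0.00609). Of these 8, 5 were among those called lower before (Trim28 and the 4 NuRD genes). Uhrf1, Ehmt2 and Daxx were then not called (adjusted p of 0.0582, 0.122 and 0.163), while Hdac2, Cbx3 and Mphosph8 were called lower (0.00385, 0.00569 and 0.0107). Retrotransposon transcripts, the best known targets of the family, were not analysed here.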

How the data were processed

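PolyA RNA was sequenced from 8 libraries, 4 per group, with a stranded kit, per the labels' protocols. The authors deposited 1 table of estimated counts per gene, not normalised, and the submitters' processing notes name Trimmomatic, MultiQC and kallisto without versions and the builds GRCm38 and mm10. Neither the transcriptome release nor the strand setting is given in the sources used here, so overlapping antisense genes are uncertain. Counts were rounded and tested in R 4.3.3 with edgeR 4.0.16 (filterByExpr, TMM, robust quasi-likelihood test, Benjamini-Hochberg over all 13299 tested genes, adjusted p under 0.05). DESeq2 1.42.0 was an alternative. CPM values divide by the library total times the TMM factor, and CPM per kb uses the mean transcript length. GC content is the mean over a gene's GENCODE M21 transcripts, which held 34581 of 35072 identifiers and 88 of 89 members (not Zfp939). GC offsets are loess fits (span 0.5) of each library's log2 CPM deviation on GC content, centred in each library; centring was chosen after the values without it had been seen. The standard error is the absolute log2 change divided by the square root of F. No libraries of a group agreed within sampling noise (chi-square per degree of freedom of at least 20.258). The procedure was tested on simulated data. The values of 1 called gene of the co-repressor list are not reported here.

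Deviations of neighbouring title codes from their group means correlated at 0.65 (1 and 2), 0.37 (7 and 8), 0.66 (10 and 11) and 0.37 (13 and 14). Non-neighbours of the same library set reached 0.27 to 0.37, so the correlations do not by themselves tell pairs from sets. Groups came from the treatment label. The members, gene lists and tests were chosen with earlier results of these data known. Named members are those called without or with pairs, the 6 highest per kilobase, the 4 largest increases and decreases, the 2 lowest and highest in GC content, the edges of the range and the 3 most like Zfp950; Zfp866, Zfp931, Zfp810, Zfp827 and the untested members were picked once their values were known. Rows without a symbol, 8884 in number, stayed in the fits under their identifiers and held 1.22% to 1.65% of counts. The depth was 29361986 to 41393093 counts. Relative counting error is larger at lower levels, and 48 of the 71 tested members were under 10 CPM. The standard error with pairs, which holds more than counting error, was 0.06 for Zfp866 (20.2 CPM). It was 0.12 for Zfp810 (5.89 CPM) and 0.20 for Zfp945 (1.99 CPM).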

Additional observations from a re-analysis of the deposited data

Results flagged for a closer look

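In 4 of 62 groups of 4 libraries, over all named members, 1 library lay far from the rest; chance gives about 1 in 20. Zfp871 stood at 35.42 CPM in formate 3, where the next library was at 29.1. Zfp995 stood at 3.613 CPM in control 1, with the next at 2.565. Zfp983 stood at 8.212 CPM in formate 3, with the next at 12.37. Zfp809 stood at 26.88 CPM in control 3, with the next at 19.34.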

How the results depend on the processing

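Without pairing, 0 members were called higher or lower under every scaling, filter, tool, GC offset and left-out library tried, and with the library set as a term (added after seeing the data). With the replicate block (pairs of title codes), members called higher numbered 16 with TMM and with RLE factors, 17 with upper quartile scaling, 19 with library size only, 18 with no count filter, 10 with DESeq2 and 4 with GC offsets, centred or not. With 1 pair left out they numbered 5, 8, 6 or 7 (in the order of the codes), and 4 in codes 1 to 8 alone and 1 in codes 10 to 14 alone; none was called lower in any. In DESeq2, 5 of the 16 had no adjusted p. Over all genes the block gave 711 higher and 1000 lower with TMM, 1048 and 539 with library size only, and 403 and 1484 with GC offsets that were not centred. With RLE factors it gave 612 and 1126, and with upper quartile scaling 832 and 736. No count filter gave 916 and 1361, DESeq2 492 and 1082, and centred GC offsets 563 and 844. Leaving out 1 pair, in the order of the codes, gave 160 and 177, 303 and 419, 556 and 815, and 224 and 278. Codes 1 to 8 alone gave 340 and 488, and codes 10 to 14 alone 48 and 13.

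The median over members, 0.25 without pairing, was 0.14 with GC offsets (0.15 with the block) and 0.11 (0.12 with the block) where these were not centred. Leaving out 1 library without pairing gave 0.17 (formate 1 out) to 0.32 (control 1 out), and leaving out 1 pair with the block 0.21 to 0.29. The Spearman correlation with GC content, -0.39, became 0.039 with GC offsets (0.0498 with the block) and 0.0375 (0.0405) where these were not centred, which follows from removing the trend. Without offsets or pairing, it was -0.20 in codes 1 to 8 alone and -0.46 in codes 10 to 14 alone.

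Co-repressor genes called, 0 without pairing, numbered 10 with the block, 13 with RLE, 9 with upper quartile or library size only, 14 with no filter, 12 with DESeq2, 8 with GC offsets, 12 where these were not centred, 1, 2, 10 and 2 with 1 pair left out, 8 in codes 1 to 8 and 0 in codes 10 to 14, where 48 genes in all were called higher and 13 lower. Calls over all genes with the block in the same settings are given above. The cause of these differences between settings was not tested.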
